A study of Homo sapiens with 4 samples.

Results

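The kinesins are the motor proteins that walk along microtubules or take them apart, and their genes were followed in MDA-MB-231 cells after knockdown of AXL. MDA-MB-231 is an established human line derived from a triple-negative breast tumour. AXL is a tyrosine kinase receptor of the cell surface. Members were the protein-coding genes whose symbol is KIF followed by a digit, together with KIFC1, KIFC2 and KIFC3. There were 42 of them among the 63677 genes measured. These symbols belonged to 46 protein-coding entries. For a repeated symbol the entry with the highest mean was kept, and the 4 entries left out had 0 reads. Cells received either a control siRNA (siCt, 2 libraries) or a pool of siRNAs against AXL (siAxl, 2 libraries), and no other treatment is named for the 4 libraries. The time between transfection and harvest is not given in the sources used here. A single pool was used, so loss of AXL and other effects of these siRNAs cannot be told apart. The labels do not say whether the libraries of a group came from separate cultures, and the spread between them may be technical.

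A kinesin couples the splitting of ATP in its motor domain to a step along the microtubule, and the rest of the protein decides what is carried. The mitotic kinesins push the spindle poles apart, align and segregate the chromosomes and build the midzone where the cell divides, and their genes are switched on late in the cell cycle. The transport kinesins move vesicles, endosomes, mitochondria and ciliary cargo, mostly toward the cell edge, in dividing and resting cells alike. The 42 genes were divided by role into 15 mitotic kinesins, 15 transport kinesins and 12 with roles in the cilium, in Hedgehog signalling, in microtubule growth or in processes that are less well known.

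Values are normalized counts, that is, reads per gene over a DESeq2 size factor for each library. The 4 libraries held between 39574387 and 44585773 reads. The test was limma's, on log2(normalized count + 1), where the change of a low gene is understated. Log2 fold changes are given as siAxl over siCt, and genes with a Benjamini-Hochberg adjusted p under 0.05 are termed called, with the adjustment over the 16064 genes that passed a filter on low counts. Permuting 2 libraries against 2 could give no two-sided p below 0.333, and the adjusted p-values rest on a spread that limma shares across genes. AXL had 29189 and 30617 normalized counts in siCt 1 and siCt 2, against 8658 and 7141 in siAxl 1 and siAxl 2, which left 26.4% of the siCt level (log2 fold change -1.93 with a standard error, SE, of 0.0918 and limma adjusted p = 0.000585). Of all genes tested, 7.91% were called lower and 10.8% higher in siAxl, and the median log2 fold change was -0.0022. Among the 13241 protein-coding genes tested, the type of all kinesins, the shares were somewhat larger, 9.24% lower and 12.6% higher. Scaled by total reads alone, 1536 genes were called higher and 1745 lower, against 1735 and 1271 in the main comparison. The mesenchymal markers VIM (86751 to 99296 normalized counts) and CD44 (33968 to 36518) were high, while ESR1 and PGR stayed at or under 3.25. The epithelial gene CDH1 had 90.1 and 94.3 normalized counts in siCt and 36.9 and 22.6 in siAxl and was called lower. EPCAM stood between 565 and 771, and ERBB2 between 2949 and 3680. ERBB2 was called higher, though not without siCt 2, siAxl 1 or siAxl 2.

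Of the 42 kinesins, 39 had at least 1 read and 33 passed the filter. Among these 33, 6 were called lower and 1 higher, where 18.7% of all tested genes were called in either direction. Levels between genes were compared per kb of exon, with exon lengths from GENCODE release 29, which held all 42 genes. KIF5B, the widely used heavy chain of kinesin-1, was the highest, with a mean of 3466 normalized counts per kb over the 4 libraries. It was followed by the minus-end directed spindle motor KIFC1 (1552), the vesicle motor KIF1C (1345) and the microtubule depolymerase KIF2C (1291). KIF11, the motor that pushes the spindle poles apart, had 1138 and KIF3B, a kinesin-2 chain, 1091. The levels of the other tested mitotic and transport kinesins ran from 895 in KIF20A down to 132 in KIF16B, with KIF17 alone far below at 2.40. Among the kinesins of the cilium and other roles KIF24 was the highest, at 120.

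**Figure D1:**
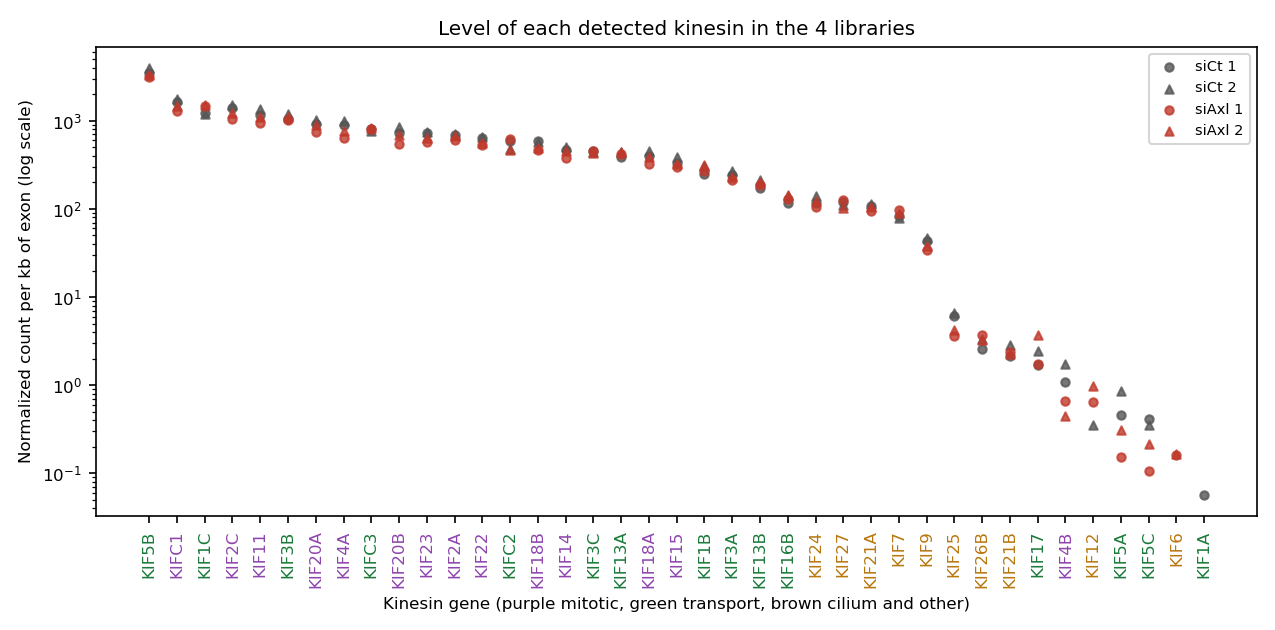
Normalized counts per kb of exon (log axis) of the 39 kinesins with at least 1 read, 1 point for each library (gray siCt, red siAxl, circles replicate 1, triangles replicate 2), ordered by mean, with libraries at 0 not drawn. KIF5B led at a mean of 3466, and the levels dropped from 40.4 in KIF9 to 5.14 in KIF25.

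The neuronal motors were all but absent. KIF1A, which carries synaptic vesicle precursors, had 1 read over the 4 libraries, and the neuronal kinesin-1 chains KIF5A and KIF5C had 11 and 10. KIF4B, an intronless copy of KIF4A, had 17 reads, and since the copies are nearly identical in sequence its reads cannot be assigned with certainty. KIF12 had 6 reads and KIF6 had 4. No reads were counted for KIF2B, KIF19 and KIF26A. A count of 0 allows up to 3 reads, or 2.88 to 3.25 normalized counts in these libraries, for counting error only. These 9 genes were not tested.

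Many genes of late mitosis carry in their promoter a CHR, the cell cycle genes homology region, which is bound by the MuvB core through LIN54, often together with CCAAT boxes bound by NF-Y. Promoters of 300 bases, from 250 before to 50 after the transcript start, were taken from RefSeq (GRCh38.p14) by symbol, and 34 of the 42 kinesins had one. A CHR was searched as TTTGAA or TTCGAA on both strands, and CCAAT on both strands. Matches of different words may share bases. A CHR match was present in 12 of 16 promoters of mitotic kinesins (75%), in 1 of 16 of transport kinesins (6.25%) and in 1 of 11 of the others (9.09%), against 16.4% of all 35116 promoters. CCAAT was found in 68.8%, 31.2% and 36.4% of these promoters, against 34.6% of all. Some genes have more than 1 promoter. By gene, a CHR match was held by 11 of the 15 mitotic kinesins, 1 of 11 transport kinesins and 1 of 8 others with a promoter. Of the 14660 promoters of protein-coding genes tested, 12.2% had one. The mitotic kinesins KIF20A, KIF2A, KIF2B and KIF2C had none in this window. The stretches around the match are shown for the called mitotic kinesins that hold one and for KIF11, KIF20B and KIF4B, 5′ to 3′ on the strand of the gene, with the match in capitals (TTCAAA is TTTGAA on the other strand).
KIF4A (chrX:70290058-70290087, plus strand): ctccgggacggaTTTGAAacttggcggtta
KIF4B (chr5:155013746-155013775, plus strand): ctctgggagggaTTTGAAacttggcggtta
KIF23 (chr15:69414282-69414311, plus strand): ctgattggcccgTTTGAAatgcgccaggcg
KIF18B (chr17:44947754-44947783, minus strand): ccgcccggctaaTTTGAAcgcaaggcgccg
KIF22 (chr16:29790712-29790741, plus strand): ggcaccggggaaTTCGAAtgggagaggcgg
KIFC1 (chr6:33391815-33391844, plus strand): tggccgttggaaTTCAAAagtggcgggtgt
KIF11 (chr10:92593090-92593119, plus strand): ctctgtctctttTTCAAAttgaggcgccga
KIF20B (chr10:89701602-89701631, plus strand): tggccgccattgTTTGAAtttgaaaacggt
In KIF20B a second copy follows directly, in lower case. The match of KIF23 began 55 bases before the start and that of KIF4A 34 bases before it, and those of KIF18B and KIFC1 began at bases 3 and 5 of the transcript. Among transport kinesins KIF5B held a CHR match, 140 bases before its start. The protein-coding genes tested were also split by CHR match, where a promoter was found for the symbol. Of the 1585 with a match, 11.6% were called lower in siAxl (median log2 fold change -0.027). Of the 8398 without one, 8.66% were called lower (median 0.0036). A match describes these letters and was not tested as a binding site.

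**Figure D2:**
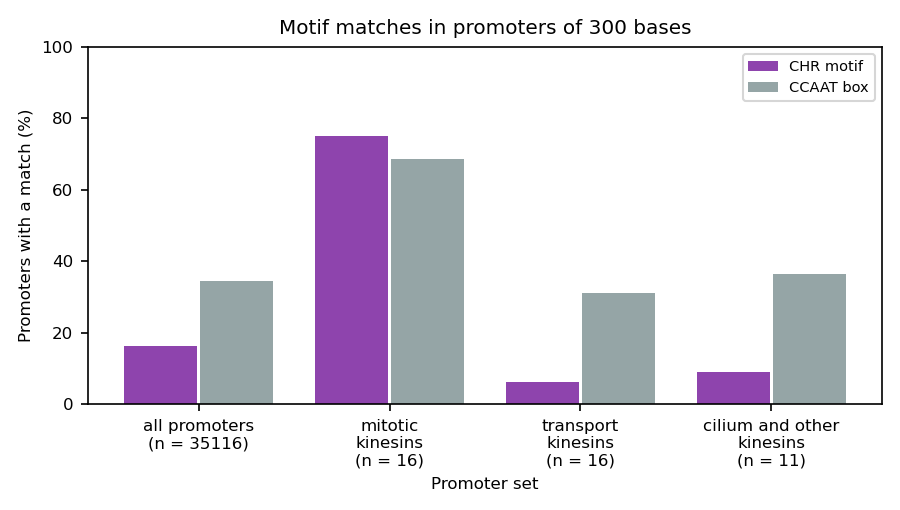
Share of promoters of 300 bases (vertical axis, percent) with a CHR match (purple) or a CCAAT match (gray), for all promoters and for the kinesins of each role, with the number of promoters under each pair of bars. The CHR bar stands at 75% for mitotic kinesins and at 6.25% for transport kinesins.

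Among the mitotic kinesins 6 genes fell after AXL knockdown, KIF4A, KIF2C, KIFC1, KIF23, KIF18B and KIF22. Of the 15, 13 were tested, each with at least 1489.9 normalized counts in every library, and 6 were called lower, 0 higher and 7 not called, against 7.91% of all tested genes called lower. In all 13 the higher siAxl library was still below the lower siCt library, which held for 30.5% of all tested genes. The 13 genes come from the same 4 libraries and are not 13 independent observations. On the log2 scale, the median of the 13 in each library had a pooled SD within groups of 0.155. The median log2 fold change of the 13 was -0.28, from -0.43 in KIF4A to -0.13 in KIF2A. Within the siAxl group, siAxl 1 was the lower library in each of the 13. Without siAxl 1 the median was -0.21. The number called changed with the library left out, and so did the number over all tested genes. With every gene of at least 1 read in any library tested, 0 were called, where 340 of all 27108 genes tested were called lower. In RNA from a whole culture, fewer cells in mitosis and less RNA per cell cannot be told apart.

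**Figure D3:**
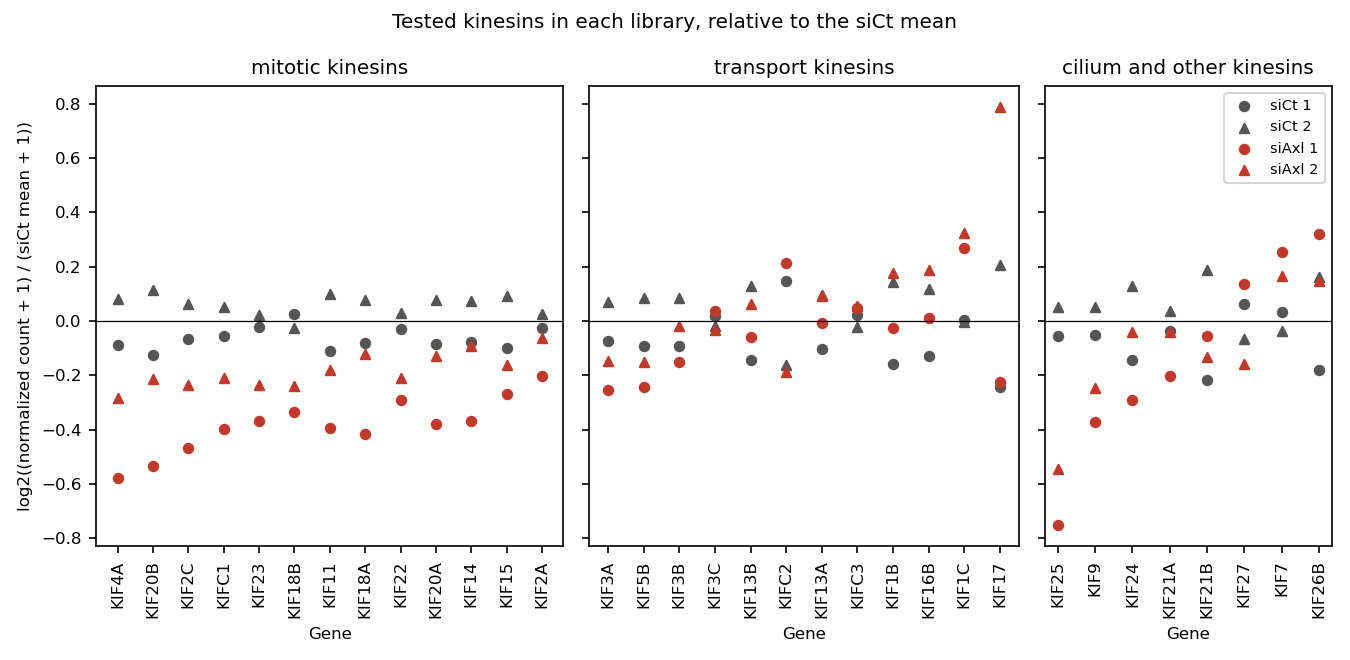
Log2 ratio of each library to the siCt mean (vertical axis) for the 33 tested kinesins, in a panel for each role and ordered by fold change (gray siCt, red siAxl, circles replicate 1, triangles replicate 2). All red points lie below all gray points in the 13 mitotic kinesins, in 2 of the 12 transport kinesins and in 3 of the 8 others, against 30.5% of all tested genes.

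Motors of the chromosome arms and the midzone were among those called. KIF4A, a chromokinesin that also works with PRC1 to set the length of the midzone, had 4004 and 4504 normalized counts in siCt and 2851 and 3499 in siAxl. It fell the furthest among the tested mitotic kinesins, to 74.6% of the siCt level (log2 fold change -0.43 with SE 0.105 and limma adjusted p = 0.0324). Its exons share 77 bases with PDZD11 on the opposite strand. KIF22, the other chromokinesin, had 2711 and 2824 normalized counts in siCt and 2261 and 2391 in siAxl. Its change was smaller, and both groups were tight (log2 fold change -0.25 with SE 0.0614 and adjusted p = 0.0321). KIF23, the motor of the centralspindlin complex that marks the plane of cytokinesis, had 4807 and 4954 normalized counts in siCt and 3786 and 4146 in siAxl. It had the smallest adjusted p of the mitotic group (log2 fold change -0.30 with SE 0.0637 and limma adjusted p = 0.0212).

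The motors that act on microtubule ends and cross-link the spindle gave the remaining calls. KIF2C, a kinesin-13 that takes microtubules apart at kinetochores, had 5036 and 5504 normalized counts in siCt and 3816 and 4473 in siAxl, a log2 fold change of -0.35 (SE 0.0869, limma adjusted p = 0.0336). KIF18B, a kinesin-8 that limits the length of astral microtubules, had 2754 and 2657 normalized counts in siCt and 2143 and 2291 in siAxl, a log2 fold change of -0.29 (SE 0.0628, adjusted p = 0.0231). KIFC1, which draws microtubules together at the poles and clusters extra centrosomes, had 5516 and 5943 normalized counts in siCt and 4349 and 4958 in siAxl, a log2 fold change of -0.30 (SE 0.0775, adjusted p = 0.0368). In none of these 3 genes did the groups overlap. Each of the 6 calls was lost without siAxl 1, with adjusted p-values from 0.106 in KIF4A to 0.182 in KIF22. KIF22 was also not called without siCt 2 (0.0915) or without siAxl 2 (0.0704).

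The other 7 tested mitotic kinesins had log2 fold changes from -0.37 to -0.13 and were not called. KIF20B, a motor of late cytokinesis, had 4981 and 5882 normalized counts in siCt and 3756 and 4688 in siAxl, a log2 fold change of -0.37 (SE 0.118, limma adjusted p = 0.0724). KIF11 had 5626 and 6510 normalized counts in siCt and 4624 and 5354 in siAxl, a log2 fold change of -0.28 (SE 0.0944, adjusted p = 0.0801). Both were called by DESeq2 on the recovered reads, with adjusted p-values of 0.0158 and 0.0366. KIF20A, which brings the chromosomal passenger complex to the midzone, had 3631 and 4063 normalized counts in siCt and 2961 and 3521 in siAxl, a log2 fold change of -0.25 (SE 0.0952, limma adjusted p = 0.113). Its exons share 132 bases with BRD8 and 68 with CDC23 on the opposite strand, genes with 19217 and 12701 reads over the 4 libraries against its own 14169. As the strand setting of the counting is not given in the sources used here, such reads cannot be told apart. The spread between the libraries of a group was wider in these 3 genes than in KIF22 or KIF18B, with standard deviations from 305 to 659 normalized counts (n = 2 in each group). Of the other called genes, KIF4A (353 in siCt and 459 in siAxl), KIF2C (331 and 464) and KIFC1 (302 and 431) had spreads like that of KIF20A. The spread of KIF23 was narrower (104 and 254).

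KIF18A, which aligns chromosomes at the spindle equator, had a log2 fold change of -0.27 (95% interval -0.52 to -0.014), and KIF15, which backs up KIF11 in keeping the spindle bipolar, of -0.21 (-0.41 to -0.018). KIF14, which anchors citron kinase at the midbody, stood at -0.23 (-0.46 to 0.0064). The exons of KIF18A share 61 bases with METTL15 on the opposite strand, which had 3555 reads against 7295 of KIF18A. KIF2A, a depolymerase of the spindle poles that also acts in resting cells, showed the smallest difference, with 3291 and 3407 normalized counts in siCt against 2913 and 3209 in siAxl (log2 fold change -0.13, 95% interval -0.29 to 0.026, limma adjusted p = 0.216). Its exons share 428 bases with IPO11 on the same strand. With KIF2A put outside the mitotic group, the median of the mitotic kinesins was -0.28 and 6 were called. The reads of KIF4B numbered 5 and 7 in siCt and 3 and 2 in siAxl.

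**Figure D4:**
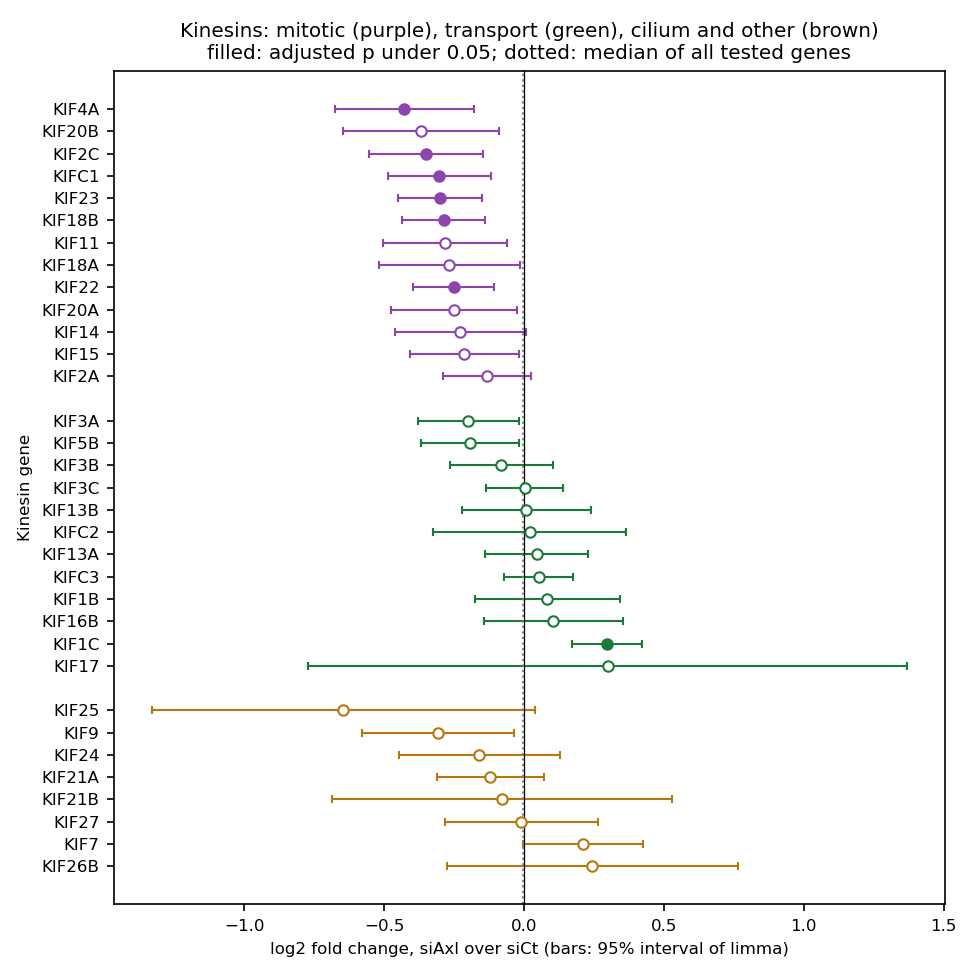
Log2 fold change of siAxl over siCt (horizontal axis) with the 95% interval of limma for the 33 tested kinesins, mitotic in purple, transport in green, cilium and other in brown, with filled points at an adjusted p under 0.05 and a dotted line at the median of all tested genes. All 13 mitotic points lie left of 0, whereas the transport points lie on both sides. KIF3C, KIF13B and KIFC2 change sides under scaling by total reads alone.

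Of the 15 transport kinesins, 12 were tested, 1 was called higher, 0 lower and 11 not called, against 10.8% of all tested genes called higher. The median log2 fold change was 0.033, with 9 values above 0 and 3 below, and under scaling by total reads alone it was 0.0041 and KIF3C, KIF13B and KIFC2 stood below 0. The groups overlapped in 8 of the 12 genes, against 6238 of all 16064 tested, so separate groups were not more frequent here than elsewhere. In the other 4, KIF1C and KIFC3 had both siAxl libraries above both siCt libraries (30.6% of all tested genes). KIF5B and KIF3A had both below (30.5%). With siCt 1 left out the median was -0.036, with siAxl 2 left out -0.010 and with siCt 2 left out 0.087.

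KIF1C, a fast kinesin-3 that carries vesicles and integrins, was the transport kinesin called. It had 10368 and 10335 normalized counts in siCt and 12487 and 12963 in siAxl, means of 10352 ± 24.0 and 12725 ± 336 (SD, n = 2 in each). The log2 fold change was 0.30 (SE 0.0530, limma adjusted p = 0.0121), the smallest adjusted p of all kinesins. The quasi-likelihood test of edgeR gave 0.00829 and DESeq2 0.000718 as its adjusted p. It was not called without siAxl 2 (0.0682). The other tested transport kinesins of the kinesin-3 family were not called, and their groups overlapped. KIF1B, which carries mitochondria and vesicles, had a log2 fold change of 0.084 (95% interval -0.17 to 0.34), and KIF16B, a motor of early endosomes, of 0.10 (-0.14 to 0.35). KIF13A and KIF13B, of the recycling and membrane routes, stood at 0.046 (-0.14 to 0.23) and 0.0086 (-0.22 to 0.24), the latter below 0 under scaling by total reads alone.

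KIF5B, the most abundant kinesin, had 20427 and 23071 normalized counts in siCt and 18373 and 19608 in siAxl. The groups did not overlap, and the log2 fold change of -0.19 was not called (SE 0.0744, limma adjusted p = 0.115). Without siCt 1 it was -0.28 and was called (adjusted p = 0.0266). KIF3A and KIF3B pair in the kinesin-2 that drives cargo into the cilium. KIF3A had 1658 and 1831 normalized counts in siCt and 1462 and 1576 in siAxl (log2 fold change -0.20 with SE 0.0766 and adjusted p = 0.116), and was likewise called without siCt 1 (0.0313). KIF3B had 6426 and 7271 normalized counts in siCt and 6174 and 6766 in siAxl, and these groups overlapped (log2 fold change -0.081, 95% interval -0.26 to 0.10). KIF3C, the alternative partner of KIF3A, had a log2 fold change of 0.0030 (95% interval -0.14 to 0.14), and of -0.026 under scaling by total reads alone.

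The minus-end directed KIFC3, a motor of cell junctions and the Golgi, had 7664 and 7429 normalized counts in siCt and 7804 and 7847 in siAxl. Its groups were separate by a small margin (log2 fold change 0.053, 95% interval -0.071 to 0.18, limma adjusted p = 0.534). KIFC2 had 2640 and 2130 normalized counts in siCt and 2766 and 2092 in siAxl, so the libraries differed by replicate number more than by group (log2 fold change 0.021, 95% interval -0.32 to 0.36, and -0.0086 under scaling by total reads alone). KIF17, a kinesin-2 of cilia and dendrites, had 8 and 10 reads in siCt and 8 and 17 in siAxl, too few to place its change (95% interval -0.77 to 1.37).

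The counts of the genes described above were also summed by role. The sums restate those values, are weighted toward the most abundant genes and are not a separate result. The mitotic kinesins together had 49355 and 54085 normalized counts in siCt 1 and siCt 2, against 39257 and 45365 in siAxl 1 and siAxl 2. Their share of all kinesin counts was 42.5% and 42.9% in siCt and 36.8% and 39.1% in siAxl. The transport kinesins had 63616 and 68652 normalized counts in siCt and 64461 and 67472 in siAxl. Their summed level overlapped between the groups, while that of the mitotic genes did not.

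Among the 12 kinesins of the cilium and other roles, 8 were tested and 0 were called by limma, edgeR or DESeq2. With limma 18.7% of all tested genes were called in either direction, so 0 of 8 does not set this role apart. Of the 8, KIF9 had an unadjusted p under 0.05, with 252 and 271 normalized counts in siCt and 202 and 220 in siAxl (log2 fold change -0.31 with SE 0.115 and limma adjusted p = 0.106). Its exons overlap KLHL18 and KIF9-AS1 on the opposite strand. KIF7, a Hedgehog regulator at the tip of the cilium, had 414 and 394 normalized counts in siCt and 483 and 454 in siAxl, with no overlap (log2 fold change 0.21, 95% interval -0.0043 to 0.43). It shares 589 bases of exon with TICRR on the opposite strand, which had 4312 reads against its own 1755. KIF21A, which restrains microtubule growth at the cell cortex, had 1077 and 1134 normalized counts in siCt and 962 and 1076 in siAxl (log2 fold change -0.12, 95% interval -0.31 to 0.072). KIF24, a centriole kinesin that holds back cilium growth, had 707 and 853 normalized counts in siCt and 637 and 758 in siAxl, with overlap (log2 fold change -0.16, 95% interval -0.45 to 0.13). The exons of KIF24 share 143 bases with UBAP1 on the opposite strand, which had 17111 reads against 2951 of KIF24. KIF27 had 618 and 565 normalized counts in siCt and 650 and 531 in siAxl (log2 fold change -0.0091, 95% interval -0.28 to 0.26). The remaining 3, KIF25, KIF26B and KIF21B, had at most 53.4 normalized counts in any library, and their intervals all included 0.

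The partners of the mitotic kinesins also had lower values in siAxl. Of 18 partners, all tested, 18 had a log2 fold change below 0, and 3 were called lower and 0 higher (16.7%, against 7.91% of all tested genes), with a median of -0.23. The number of partners called changed with the library left out, and so did the number over all tested genes. Scaling by total reads alone gave 6 calls, where 1745 of all 16064 genes tested were called lower. DESeq2 gave 8 (1110 of 12949 genes called lower) and the filter of at least 1 read in any library 1 (340 of 27108). AURKB, the kinase of the chromosomal passenger complex that KIF20A carries, had 2230 and 2314 normalized counts in siCt and 1776 and 1717 in siAxl (log2 fold change -0.38 with SE 0.0608 and limma adjusted p = 0.00859). CDCA8, another subunit of that complex, fell by 0.38 (SE 0.0815, adjusted p = 0.0217) and the spindle protein HMMR fell by 0.46 (SE 0.104, adjusted p = 0.0261) on the log2 scale. CDCA8 was not called without siAxl 1 (adjusted p = 0.0904) and HMMR neither without siAxl 1 (0.123) nor without siCt 2 (0.0559). RACGAP1, which joins KIF23 in centralspindlin, had 4564 and 4851 normalized counts in siCt and 3616 and 4199 in siAxl and was not called (log2 fold change -0.27, adjusted p = 0.0578). The list of partners also holds CENPE, itself a mitotic kinesin, whose symbol falls outside the rule for members. CENPE had 4238 and 4938 normalized counts in siCt and 3450 and 4579 in siAxl. These groups overlapped, and it was not called (log2 fold change -0.20, limma adjusted p = 0.336).

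Of the 16 cell cycle transcription factors, all tested, 5 were called lower and 0 higher, against 7.91% and 10.8% of all tested genes, and the median log2 fold change was -0.15. E2F1, a driver of entry into S phase, had 3625 and 3568 normalized counts in siCt and 2571 and 2462 in siAxl (log2 fold change -0.52 with SE 0.0569 and limma adjusted p = 0.00304). LIN52, a subunit of the MuvB core, fell by 0.52 (SE 0.0883, adjusted p = 0.0102) and NFYC, a subunit of NF-Y, fell by 0.36 (SE 0.0569, adjusted p = 0.00836) on the log2 scale. The other 2 called were RBL1 and E2F8, both not called without siAxl 1 (0.0659 and 0.113). LIN54, the MuvB subunit that reads the CHR, had 1654 and 1741 normalized counts in siCt and 1527 and 1619 in siAxl and was not called (log2 fold change -0.11, 95% interval -0.27 to 0.048). Of the same core, LIN9 had a log2 fold change of -0.29 and LIN37 of 0.039, and neither was called. The other NF-Y subunits, NFYA (-0.052) and NFYB (0.043), were not called either. FOXM1, an activator of mitotic genes, stood at -0.19 (95% interval -0.35 to -0.036, adjusted p = 0.0877). The part of these factors in the levels of the kinesins was not tested.

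On the transport side, 17 of 18 cargo adaptors were tested, 3 were called higher and 1 lower, against 10.8% and 7.91% of all tested genes, and the median log2 fold change was 0.095. FYCO1, which links late endosomes and autophagosomes to kinesin-1, rose from 1186 and 1274 normalized counts in siCt to 2864 and 3058 in siAxl (log2 fold change 1.27 with SE 0.0689 and limma adjusted p = 0.000692). PLEKHM2, which joins lysosomes to kinesin-1, rose by 0.26 (SE 0.0538, adjusted p = 0.0184), and TRAK1, an adaptor of mitochondria, by 0.20 (adjusted p = 0.0487), both on the log2 scale. PLEKHM2 was not called without siAxl 1 (0.0752) or siAxl 2 (0.0947), and TRAK1 lost its call with any library left out (0.0743 to 0.223). KLC2, a light chain of kinesin-1, had 6277 and 6482 normalized counts in siCt and 4949 and 4872 in siAxl, and it was the adaptor called lower (log2 fold change -0.38 with SE 0.0532 and adjusted p = 0.00572). KIFAP3, the non-motor subunit that joins KIF3A and KIF3B, stood at 0.16 (adjusted p = 0.146), opposite in sign to KIF3A.

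Of 24 genes of dynein and dynactin, which move cargo the other way along microtubules, 23 were tested, 4 were called higher and 0 lower, against 10.8% and 7.91% of all tested genes, and the median log2 fold change was 0.050. The dynein light chain DYNLL2 rose from 2787 and 2559 normalized counts in siCt to 5106 and 5295 in siAxl (log2 fold change 0.96 with SE 0.0637 and limma adjusted p = 0.00113). DYNLT3 rose by 0.79 (SE 0.0589, adjusted p = 0.00136) and NDE1, a dynein regulator, by 0.29 (SE 0.0611, adjusted p = 0.0200) on the log2 scale. The call of NDE1 was lost without siAxl 1 (0.0516) or siAxl 2 (0.112). ACTR1B, of dynactin, was the fourth, and was not called without siAxl 1 (0.238), siAxl 2 or siCt 2. Among 11 tubulin genes, all tested, 2 were called higher and 1 lower, shares near the 10.8% and 7.91% of all tested genes. TUBA1A rose from 5486 and 4439 to 10295 and 8643 normalized counts (log2 fold change 0.93 with SE 0.117 and adjusted p = 0.00396) and TUBB6 by 0.51 (SE 0.0519, adjusted p = 0.00245), while TUBA4A fell by 0.29 (SE 0.0802, adjusted p = 0.0464) on the log2 scale. TUBA4A was not called without siCt 2 (0.121), siAxl 1 (0.218) or siAxl 2 (0.0508), nor with TMM scaling (0.0502). Tubulin genes are close copies of one another, and reads may be split between them.

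**Figure D5:**
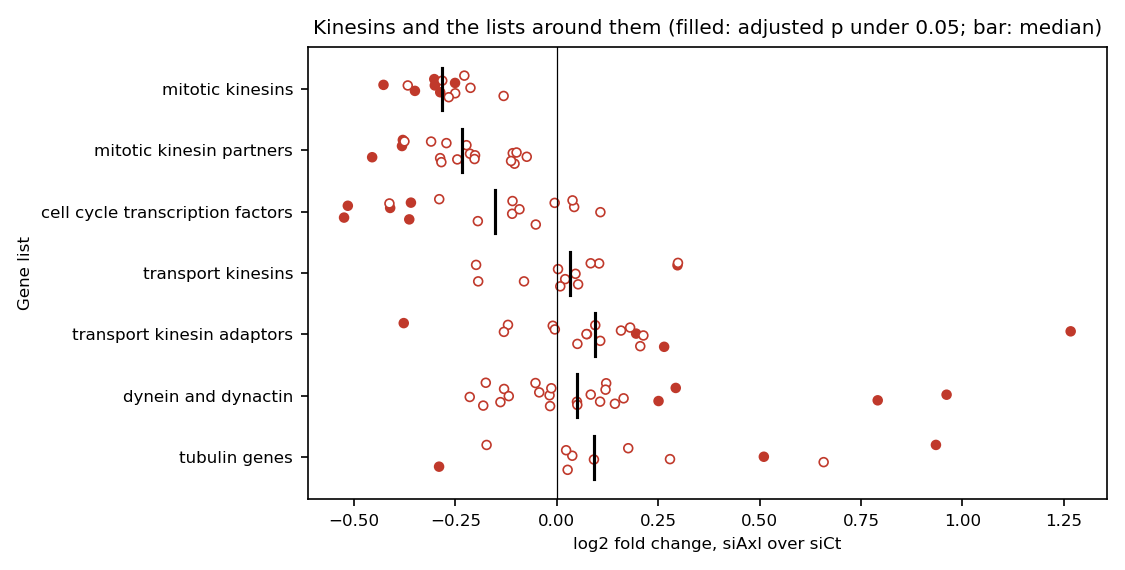
Log2 fold change of siAxl over siCt (horizontal axis) for the tested genes of each list, 1 point for each gene, filled at an adjusted p under 0.05, with a black bar at the median. The medians are -0.28 for mitotic kinesins, -0.23 for their partners, 0.033 for transport kinesins and 0.095 for their adaptors.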

How the data were processed

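RNA of 2 siCt and 2 siAxl libraries was sequenced by the authors on an Illumina HiSeq. The submitters' processing notes name CASAVA 1.8, TopHat2 2.0.10, HTSeq 0.5.3, DESeq2 1.4.5 and the build GRCh37, and the annotation and strand setting are not given in the sources used here. The deposited signal is a normalized count, for which the authors scaled reads per gene with DESeq2 size factors. In each library 100% of the values above 0 gave a whole number of reads, within 0.01 read, when multiplied by the size factor, and these reads were used as counts, and the per-sample columns not used numbered 0. The authors' deposited columns of mean count, log2 fold change, standard error and Wald score, p-value and adjusted p-value were not used.

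Samples were grouped by their titles. Genes that filterByExpr of edgeR kept, given those reads, were tested with limma 3.58.1 (lmFit, eBayes with trend) in R 4.3.3, with the condition alone, on log2 values with 1 added to each normalized count. As alternatives, edgeR 4.0.16 (quasi-likelihood, TMM) called 3122 genes and DESeq2 1.42.0 called 2598 on the recovered reads, and scaling, filter, pseudocount, threshold, a replicate term, roles, repeated symbols and each library left out were varied. The fits were also run on simulated data in which all genes had the same extra spread between libraries. That run cannot say whether the calls made here hold. The libraries of a group were counted as 2 samples. Their counts differed beyond sampling (chi-square of 20.1 per gene in siCt and 18.2 in siAxl), which does not show that they came from separate cultures. Intervals are at 95%. Members, roles and gene lists were chosen with earlier results of these data known, and are not independent support for a direction. Values in each library are given for called kinesins and for the 3 most abundant of each role that were not called. For each list the 3 genes with the smallest adjusted p are named, together with the called gene of the opposite direction. Other genes named, and values in each library for other kinesins, were chosen after their values were seen. GENCODE release 29 (GRCh38) gave exon lengths and overlaps by Ensembl identifier, and held 82.5% of the genes in the table. It differs from the build of the files, and coordinates are those of RefSeq promoters (GRCh38.p14). Precision is limited by 2 libraries per group.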

Additional observations from a re-analysis of the deposited data

How the results depend on the processing

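Under the other scalings, pseudocounts, edgeR and DESeq2, 6 to 8 mitotic kinesins were called lower and 1 transport kinesin was called, and AXL kept its call in all alternatives, with log2 fold changes from -2.07 to -1.79. With every gene of at least 1 read in any library tested, 1097 genes, 0 mitotic kinesins and 10 genes of the partner lists were called, against 3006, 6 and 19. In that alternative 27108 genes were tested, and the cause was not tested. At an adjusted p under 0.01, 859 genes, 0 mitotic kinesins, 0 transport kinesins and 9 partner genes were called.

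With 1 library left out, the calls ran from 1304 (without siAxl 1) to 3900 (without siCt 1) genes, from 0 to 12 mitotic kinesins, from 0 to 3 transport kinesins and from 10 to 35 partner genes. The median log2 fold change ran from -0.38 to -0.21 for mitotic kinesins and from -0.036 to 0.087 for transport kinesins, and that of the transport kinesins moved by more than the spread between replicates. The cause was not tested.

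The replicate numbers 1 and 2 occur in both groups, and the labels do not say that they mark a shared culture or day. The differences between replicates correlated across genes between the groups (Pearson r = 0.27 over 16064 genes and 0.60 over the 33 kinesins, genes that are not independent). Replicate 2 was the higher library in 26 of the 33 kinesins in siCt and in 27 in siAxl. With the replicate number as a block, 7308 genes, 13 mitotic kinesins, 3 transport kinesins, 3 kinesins of the other roles and 59 partner genes were called.

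Small values that were not called changed sign. Under scaling by total reads alone KIF13B stood at -0.021, KIF3C at -0.026 and KIFC2 at -0.0086, and with edgeR KIF27 stood at 0.0059. With 1 library left out, the ranges were -0.052 to 0.14 for KIF13A, -0.13 to 0.15 for KIF13B, -0.020 to 0.23 for KIF16B, -0.21 to 0.81 for KIF17, -0.067 to 0.23 for KIF1B, -0.28 to 0.12 for KIF21B, -0.15 to 0.14 for KIF27, -0.17 to 0.0083 for KIF3B, -0.033 to 0.039 for KIF3C and -0.18 to 0.22 for KIFC2.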
